A study of Mus musculus with 8 samples.

Results

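Intergenic replication initiation sites (ISs) that lie in gene-dense neighbourhoods of the mouse genome were examined in CH12 cells. An IS was included when it overlapped no protein-coding gene, lay more than 1 kb from every protein-coding transcription start site (TSS) and gene 3′ end, and had 20 or more protein-coding TSSs within 500 kb of its midpoint. Autosomes other than 10, 15 and 16 were used, with the GENCODE M1 annotation of mm9, and no measured density entered this choice. Of the 39116 ISs measured in Rif1KO and WT cells, 1892 met the rule. Of the 129937 ISs measured in Rif1KO_shMcm6 and Rif1KO_shLacZ cells, 6049 met it. The 16 autosomes held 17712 intergenic ISs in the first table and 67236 in the second.

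Short nascent strand sequencing (SNS-seq) isolates newly made leading strands, and more reads at an IS mean that replication began there in more cells of the culture. CH12 is a mouse B cell lymphoma line, and per the labels all cultures received IL4, CD40 and TGF beta stimulation. The 4 groups of 2 libraries each were WT cells, Rif1KO cells, which lack RIF1, and Rif1KO cells infected with a lentivirus for a short hairpin RNA against LacZ (Rif1KO_shLacZ) or against Mcm6 (Rif1KO_shMcm6). Both hairpin groups therefore carried the Rif1 deletion, the hairpin against LacZ has no target in mouse cells, and neither the labels nor the methods say from how many knockout clones these libraries came.

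Replication starts where MCM helicase complexes, loaded before S phase, are activated, and only some of the loaded complexes fire in any one cell. RIF1 binds protein phosphatase 1 and controls when origins fire, and MCM6 is a subunit of the helicase. Gene-rich chromatin generally replicates early and gene-poor chromatin late, and intergenic ISs among many genes lie in gene-dense surroundings without being part of a protein-coding gene. Clusters of one gene family, such as olfactory receptors, are also gene-dense but are generally silent in B cells.

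The deposited tables hold 1 pooled value per condition, in log2 RPM (reads scaled to 1000000 within the ISs of each table). Values therefore have no replicate error, no test across replicates could be made, and the errors given are counting errors only, since sequencing reads include PCR copies. ISs of one condition are not replicates of it. The reads in ISs numbered 3350255 for WT, 3724571 for Rif1KO, 21071351 for Rif1KO_shLacZ and 23602750 for Rif1KO_shMcm6. Gene-dense intergenic ISs had medians of 76 WT and 81 Rif1KO reads, and of 144 Rif1KO_shLacZ and 157 Rif1KO_shMcm6 reads. The median counting standard error (SE) of a single IS was 0.23 (log2) in the first table and 0.17 in the second. Tables were scaled separately, so densities are compared within a table, and a lower share in one set of ISs is balanced by a higher share elsewhere.

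The sequence of these ISs is shown first, because later values turn on it. Each line gives 200 bp around the midpoint of an IS, on the + strand of mm9 (NCBIM37). Capitals mark matches to a quadruplex motif, which is 4 or more runs of 3 or more G with 1 to 7 bases between runs, on either strand, so that a match on the − strand shows as runs of C. The first is the IS with the highest WT density, between the cytokine genes Osm and Lif (stretch chr11:4153400-4153599). The second had the lowest fold change in Rif1KO cells among the denser ISs (Pigg-Gm10419, chr5:108797104-108797303). The third is an IS of higher density in Rif1KO cells in an olfactory receptor cluster (chr14:51140086-51140285). The last had the highest fold change after MCM6 depletion among ISs of at least median density (Arf6-Mettl21d, chr12:70610860-70611059).
Osm-Lif: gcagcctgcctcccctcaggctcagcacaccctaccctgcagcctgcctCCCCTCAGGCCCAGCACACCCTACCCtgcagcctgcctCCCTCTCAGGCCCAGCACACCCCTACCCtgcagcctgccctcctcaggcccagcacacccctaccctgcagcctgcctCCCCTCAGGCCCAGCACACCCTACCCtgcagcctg
Pigg-Gm10419: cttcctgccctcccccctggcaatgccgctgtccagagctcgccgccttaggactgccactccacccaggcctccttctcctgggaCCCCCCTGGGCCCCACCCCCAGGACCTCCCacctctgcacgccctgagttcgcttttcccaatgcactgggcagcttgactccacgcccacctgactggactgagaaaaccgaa
Olfr742-Olfr743: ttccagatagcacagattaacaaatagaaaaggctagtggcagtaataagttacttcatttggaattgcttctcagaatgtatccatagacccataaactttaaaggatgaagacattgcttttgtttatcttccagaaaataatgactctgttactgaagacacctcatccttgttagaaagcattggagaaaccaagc
Arf6-Mettl21d: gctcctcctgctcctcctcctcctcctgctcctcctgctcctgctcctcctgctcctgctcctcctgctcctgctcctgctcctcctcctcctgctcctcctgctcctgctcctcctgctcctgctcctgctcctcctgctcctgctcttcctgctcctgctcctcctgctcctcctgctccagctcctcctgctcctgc
The Osm-Lif stretch is a tandem repeat, and the Arf6-Mettl21d stretch consists almost entirely of GCT and CCT units.

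The ISs shared features that the rule did not use. Their median GC content was 49.6% in the first table, against 46.9% for all ISs, and 46.5% against 44.4% in the second. A quadruplex motif lay within 500 bp around the midpoint of 76.0% of them, against 74.2% of all ISs, and of 52.2% against 50.7% in the second table. By comparison, 9.48% of 500-bp windows taken every 5 kb over the same intergenic territory held the motif. The motif thus marked ISs much more than it set the gene-dense intergenic ones apart from other ISs. Neighbouring genes ran in the same direction around 56.6% of the ISs of the first table and towards each other around 16.7%, against 52.3% and 21.2% of other intergenic ISs. An annotated non-coding gene covered 5.55%, against 4.53% of other intergenic ISs.

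Position followed from the rule. The median distance to the nearest protein-coding TSS was 12050 bp, against 84819 bp for other intergenic ISs, and the median gap between the flanking genes was 39150 bp against 353208 bp. The median number of TSSs within 500 kb was 27, with a maximum of 82. Chromosome 7 held 14.6% and chromosome 11 held 14.4% of the ISs of the first table.

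Gene-dense intergenic territory measured 111 Mb. The lists of ISs called per condition placed 12.5 ISs per Mb there in WT cells and 14.0 in Rif1KO cells. In intergenic territory with no TSS within 500 kb the same lists gave 4.88 and 9.32 per Mb. The excess of the gene-dense territory over TSS-free territory was thus larger in the WT list than in the Rif1KO list. The Rif1KO_shLacZ and Rif1KO_shMcm6 lists gave 44.1 and 47.6 ISs per Mb in gene-dense territory, and 36.98 and 47.2 in TSS-free territory. Gene-dense intergenic ISs made up 5.40% of the WT list, 4.63% of the Rif1KO list, 4.87% of the Rif1KO_shLacZ list and 4.57% of the Rif1KO_shMcm6 list. The lists differ in depth and length, and the part of depth in these densities was not tested.

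**Figure D1:**
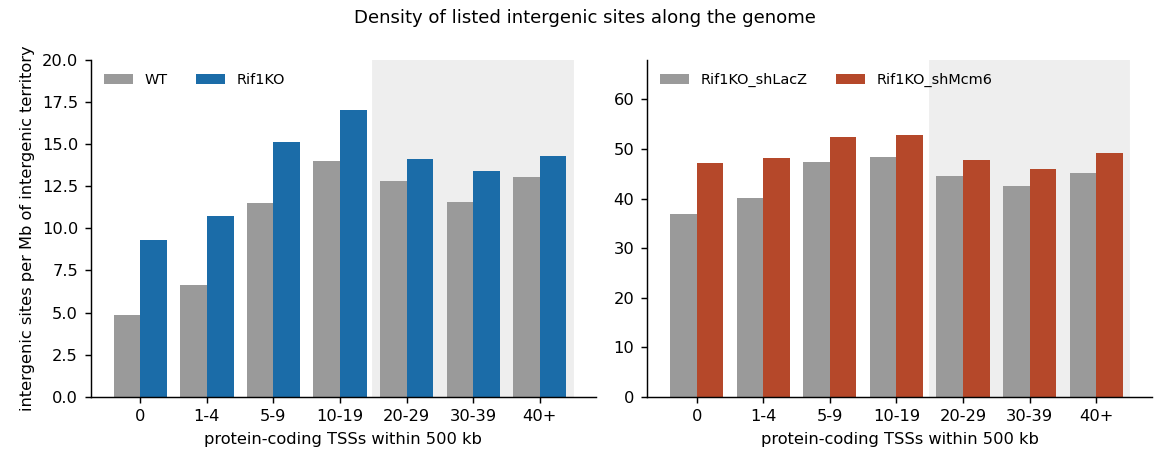
Listed intergenic ISs per Mb of intergenic territory (y axis, linear from 0) by the number of protein-coding TSSs within 500 kb (x axis), for WT and Rif1KO (left) and Rif1KO_shLacZ and Rif1KO_shMcm6 (right). Shading marks gene-dense neighbourhoods. The bars of both conditions lie closest together there, at 12.5 and 14.0 per Mb over all shaded classes, and farthest apart in territory with no TSS, at 4.88 and 9.32 per Mb.

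The first comparison asked how loss of RIF1 altered the use of these ISs. Gene-dense intergenic ISs had a slightly lower density in Rif1KO cells, with a median of 4.50 log2 RPM in WT and 4.44 in Rif1KO cells. Their median log2 fold change was −0.05 (quartiles −0.20 and 0.10, n = 1892 ISs), and 59.8% lay below 0, against 47.5% of all ISs. The displacement of the median was smaller than the counting SE of a single IS. Summed over all of them, their share of the reads was lower in Rif1KO cells by a log2 ratio of −0.06 (95% counting interval −0.066 to −0.047).

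Few of these ISs passed the 1.5-fold threshold in Rif1KO cells. Lower by over 1.5-fold were 36 ISs (1.90%, 95% Wilson interval 1.38 to 2.62%), against 2.70% of all ISs and 1.35% of the ISs on the same 16 autosomes. Higher by over 1.5-fold were 17 ISs (0.899%, interval 0.562 to 1.43%), against 2.27% and 0.945%. The lower share thus lay below that of all ISs but above that of the 16 autosomes, and above the 0.790% of all intergenic ISs and the 0.330% of intergenic ISs with 0 to 4 TSSs. The higher share lay near that of the 16 autosomes. Of the 36 lower ISs, 32 were called in WT cells only and 4 in both lists, against 261 in both lists among all 1055 lower ISs. All 17 higher ISs were called in Rif1KO cells only, near the 90.2% of all 886 higher ISs.

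The fold change followed the number of genes nearby. Medians were 0.12 for intergenic ISs with no TSS within 500 kb (n = 1877), 0.08 with 1 to 4 TSSs, 0.03 with 5 to 9 and −0.01 with 10 to 19. They were −0.05 with 20 to 29, −0.05 with 30 to 39 and −0.06 with 40 or more (n = 340). The medians thus passed from above to below 0 between 5 to 9 and 10 to 19 TSSs, the latter with an interval over ISs that includes 0. From 20 TSSs upward they differed little. At the same gene density the medians were −0.09 inside genes (n = 2164) and −0.17 within 1 kb of a TSS (n = 908), where the median GC content was also higher, at 52.5% and 58.5%.

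**Figure D2:**
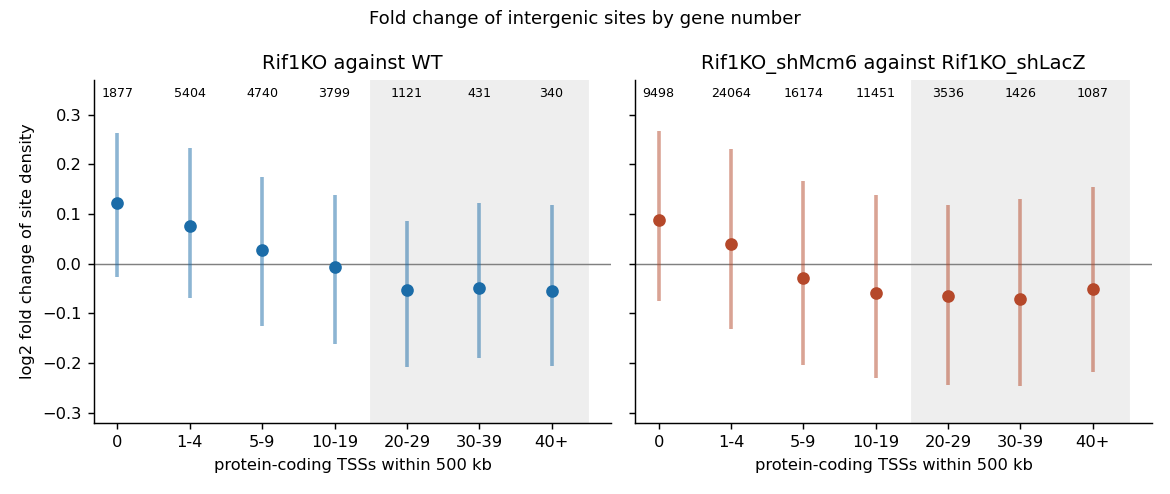
Log2 fold change of intergenic ISs (y axis) by the number of protein-coding TSSs within 500 kb (x axis) for each contrast. Points are medians, lines join the quartiles, numbers above are ISs, and shading marks gene-dense neighbourhoods, where all 6 medians lie between −0.05 and −0.07. The order is the same in both panels up to 20 TSSs, and the quartile lines of neighbouring classes overlap widely.

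Base composition moved with gene number, so medians were also taken at matched GC content. At a GC content of 40 to 45%, gene-dense intergenic ISs had a median of −0.01 and intergenic ISs with 0 to 4 TSSs had a median of 0.10. At 50 to 55% the medians were −0.10 and 0.02, and at 55% or more they were −0.12 and −0.02. The gene-dense ISs were the lower ones in all 5 GC classes, including that under 40%, where both medians were above 0 (0.10 and 0.15). Within the gene-dense ISs, the median was also lower at higher GC content, from 0.10 in the class under 40% to −0.12 in the class of 55% or more.

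Other features showed no such order. By distance to the nearest TSS the medians were −0.05 within 5 kb, −0.05 at 5 to 20 kb, −0.07 at 20 to 50 kb and −0.02 beyond. ISs between divergent, convergent and same-direction genes had medians of −0.07, −0.05 and −0.04. With and without a quadruplex motif the median was −0.05.

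**Figure D3:**
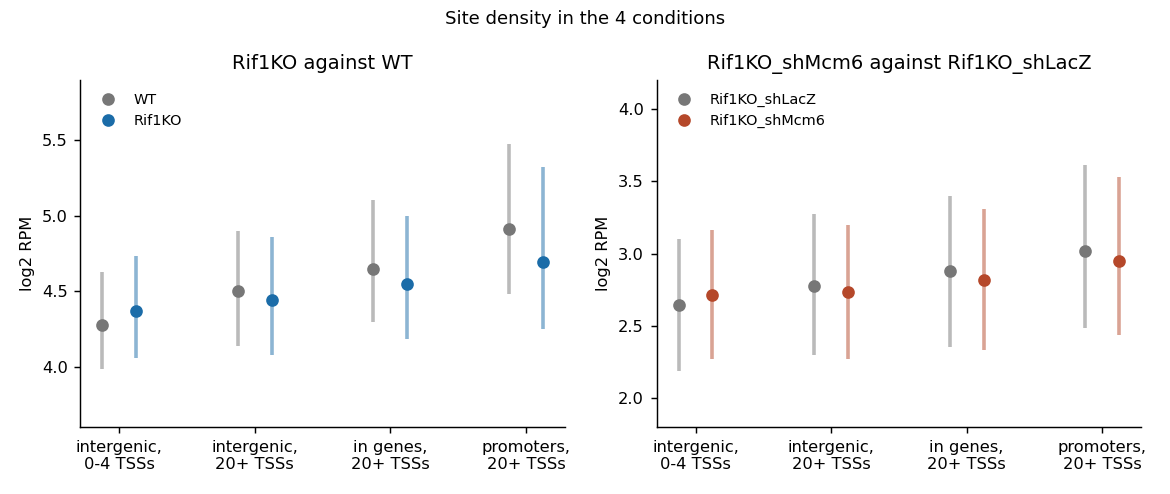
Density in log2 RPM (y axis, not starting at 0) in WT and Rif1KO cells (left) and in Rif1KO_shLacZ and Rif1KO_shMcm6 cells (right) for 4 classes of IS (x axis), with points at medians and lines joining the quartiles. Gene-dense intergenic ISs lie between gene-poor intergenic ISs and the ISs inside genes or at promoters, and the treated point is above the control point in the gene-poor class only.

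Gene-dense neighbourhoods were not uniform. Those in which 50% or more of the genes encode chemosensory receptors (olfactory, vomeronasal, trace amine, taste and formyl peptide receptors) held 245 ISs of the first table, with a median of 0.08. Of these 0 were lower by over 1.5-fold, which allows a share of up to 1.22% (Wilson limit 1.54%), against 1.35% on the 16 autosomes and 0.790% of intergenic ISs. Higher were 5 (2.04%, interval 0.875 to 4.69%), against 2.27% of all ISs and 0.945% on the 16 autosomes. The median density was 4.21 log2 RPM in WT and 4.31 in Rif1KO cells. The remaining 1647 ISs had a median of −0.07, with 36 lower and 12 higher. Receptor neighbourhoods thus lay on the other side of 0 from the rest of the gene-dense ISs and near intergenic ISs with 1 to 4 TSSs, although they passed the same rule on gene number.

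Receptor neighbourhoods were also poorer in GC, with a median of 42.2% against 50.3%. In all 5 GC classes the receptor median was above the other median, for example 0.16 against 0.02 under 40% GC and 0.05 against −0.02 at 40 to 45%, with 72 and 242 ISs. Their density of listed ISs was low in WT cells, at 5.02 per Mb against 14.7 per Mb in the other gene-dense territory, and was 9.06 against 15.4 per Mb in Rif1KO cells. Other gene families filled few neighbourhoods. Keratin and epidermal gene clusters held 13 ISs of the first table (median 0.14), protease and inhibitor clusters 13 (0.02), lectin-like and chemokine clusters 14 (−0.16), zinc finger clusters 8 (−0.02) and histone clusters 4 (−0.03).

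When all ISs were ranked into 5 equal classes by fold change, 24.4% of the gene-dense intergenic ISs fell in the lowest class and 10.9% in the highest. Outside receptor neighbourhoods these shares were 26.9% and 8.68%, and inside them 7.35% and 25.7%. In the first table the 2 kinds of neighbourhood therefore had opposite profiles across the classes. In the second table the lowest and highest classes held 28.7% and 14.7% outside receptor neighbourhoods. Inside them the shares were 16.4% and 21.8%, a flatter profile.

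Single ISs show the size of these differences against counting error. The lowest among those of at least median density lay between Pigg, which acts in making GPI anchors, and Gm10419 (chr5:108796774-108797624, GC 64.7%), with 220 WT and 122 Rif1KO reads and a log2 fold change of −1.003 ± 0.16 (counting SE). It was called in the WT and Rif1KO lists and in neither hairpin list. Next were the ISs between Gm5800 and Ang4 (−0.81 ± 0.22), between Gm17387 and B4galnt4 (−0.70 ± 0.21) and between Capns1 and Tbcb (−0.63 ± 0.22). The IS between Tbx21, which encodes the transcription factor T-bet, and Tbkbp1 had 131 and 94 reads (−0.63 ± 0.20), and in the hairpin table its fold change was 0.01 ± 0.11.

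At the upper end no IS of at least median density passed 1.5-fold. The highest lay between F730035P03Rik and Neu3, a sialidase gene, with 93 and 149 reads (0.53 ± 0.19). The IS between the olfactory receptor genes Olfr742 and Olfr743 (chr14:51139873-51140500) had 80 and 126 reads (0.50 ± 0.21). Density here is the mean of both conditions. Of the 5 lowest ISs named, those at Gm5800-Ang4, Gm17387-B4galnt4 and Capns1-Tbcb had Rif1KO densities of 4.29, 4.35 and 4.25 log2 RPM, below the Rif1KO median of 4.46 over all ISs, and met the limit through WT.

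The densest ISs differed little between WT and Rif1KO cells. The IS between Osm and Lif (chr11:4153006-4154060) had 567 WT and 562 Rif1KO reads, or 7.40 and 7.24 log2 RPM (−0.17 ± 0.086). The next 4 lay between Svop and Usp30, 2410002F23Rik and Clec11a, 2410016O06Rik and Gm17673, and Zbtb42 and AW555464, with fold changes between −0.10 and −0.05. Their 500-bp windows held 93, 275, 186 and 173 distinct hexamers of 495 possible, and the Osm-Lif window held 92, against a median of 420 over gene-dense intergenic ISs. The 5 densest ISs therefore lay in sequence of low complexity. Reads were kept only where they aligned uniquely, and the part of alignment to repeats in these densities was not tested.

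Along the genome, 175 windows of 1 Mb held 5 or more gene-dense intergenic ISs of the first table, and summed reads were lower in Rif1KO cells in 132 of them (75.4%). The 95% counting interval lay below 0 in 30 windows and above 0 in 2. The median over ISs was lower than that of other intergenic ISs on 16 of 16 chromosomes, and chromosome medians ranged from −0.09 on chromosome 5 to 0.01 on chromosome 6. The direction was thus shared by chromosomes, whereas most single windows lay within counting error.

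The lowest window with 10 or more ISs was chr5:115000001-116000000, around Oasl1 and Msi1, with 11 ISs, 972 WT reads and 872 Rif1KO reads (log2 ratio −0.31 ± 0.067). In chr19:5000001-6000000, which holds the NF-κB gene Rela, the nuclease gene Mus81 and the DNA polymerase alpha subunit gene Pola2, all 10 ISs were below 0 (−0.19 ± 0.069). In chr7:25000001-26000000, with the B cell receptor gene Cd79a and the repair gene Xrcc1, the ratio of 16 ISs was −0.18 ± 0.046. The highest were chr6:57000001-58000000, a cluster of vomeronasal receptor genes (12 ISs, 0.11 ± 0.073), chr7:110000001-111000000, which holds olfactory receptor and beta-globin genes (12 ISs, 0.10 ± 0.072), and chr8:107000001-108000000, with carboxylesterase genes (13 ISs, 0.10 ± 0.063). The intervals of the 3 highest windows included 0, and those of the 3 lowest did not.

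Genes that B cells use were followed through a list of 27, of which 7 had a gene-dense intergenic IS within 50 kb of their TSS in the first table. None of the 20 ISs near these 7 genes passed 1.5-fold, a number too small to set against 1.35% lower and 0.945% higher on the 16 autosomes. Near Cd74, the invariant chain of MHC class II, 3 ISs had 442 WT and 428 Rif1KO reads (−0.20 ± 0.098). Near Pou2f2, which encodes OCT2, 2 ISs gave −0.20 ± 0.15. Ratios near Cd79a (−0.13 ± 0.090), Ms4a1, which encodes CD20 (−0.09 ± 0.10), Cd22 (0.02 ± 0.11), Cxcr5 (0.02 ± 0.25) and Ikzf3 (0.00 ± 0.19) lay within 2 counting SEs of 0, as did that near Pou2f2.

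The second comparison asked how depletion of MCM6 in cells without RIF1 altered the use of these ISs. Gene-dense intergenic ISs again had a slightly lower density in the treated cells, with medians of 2.77 log2 RPM in Rif1KO_shLacZ and 2.73 in Rif1KO_shMcm6 cells. The median log2 fold change was −0.06 (quartiles −0.24 and 0.13, n = 6049 ISs), and 59.7% lay below 0, against 51.6% of all ISs. Their share of the reads was lower by a log2 ratio of −0.05 (95% counting interval −0.052 to −0.045).

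Past 1.5-fold, however, more of these ISs were higher than lower. Lower were 149 ISs (2.46%, 95% Wilson interval 2.10 to 2.89%), against 1.51% of all ISs. Higher were 241 ISs (3.98%, interval 3.52 to 4.51%), against 4.80% of all ISs and 4.82% of those on the 16 autosomes. The lower share was above the background and the higher share below it, while the 2 directions stood in the same order as in all ISs. Among ISs called in both hairpin lists the higher share was 1.35% (interval 1.04 to 1.76%), near the 1.30% of all ISs called in both, and the lower share was 1.23% against 0.751%. The order of the 2 directions turned at a log2 threshold of 0.32, with 15.99% lower and 11.6% higher. No share of all ISs is given at that threshold, so whether this turn was particular to gene-dense ISs was not tested. The order also turned among ISs overlapping exactly 1 IS of the first table, with 2.26% lower and 0.9702% higher. The latter turn was not particular to them, since 476 of all 31564 ISs found in both tables were lower and 286 higher. Of the 241 higher ISs, 184 were among the 1212 called in Rif1KO_shMcm6 cells only (76.3%), against 80.9% of all 6231 higher ISs.

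The medians by gene number resembled those of the first contrast. They were 0.09 with no TSS within 500 kb (n = 9498), 0.04 with 1 to 4, −0.03 with 5 to 9 and −0.06 with 10 to 19. With 20 to 29, 30 to 39 and 40 or more TSSs they were −0.07, −0.07 and −0.05. Here the classes from 10 TSSs upward lay between −0.05 and −0.07, so the gene-dense ISs did not stand apart from the class below them. Inside genes and within 1 kb of a TSS in gene-dense neighbourhoods, medians were −0.10 (n = 5617) and −0.07 (n = 2005). At matched GC content the gene-dense intergenic ISs had the lower median in all 5 classes, for example −0.06 against 0.02 at 40 to 45% and −0.13 against 0.02 at 50 to 55%, compared with intergenic ISs with 0 to 4 TSSs.

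Receptor neighbourhoods held 1265 ISs of the second table, with a median of 0.02. Lower by over 1.5-fold were 13 of them (1.03%, interval 0.602 to 1.75%) and higher were 71 (5.61%, interval 4.47 to 7.02%), against 1.51% and 4.80% of all ISs. The other 4784 ISs had a median of −0.09, with 136 lower (2.84%) and 170 higher (3.55%). The receptor median was above the other median in all 5 GC classes, but it was itself below 0 in 3 of them. It was −0.02 at 40 to 45% (n = 321, against −0.08 for 947 other ISs), −0.07 at 45 to 50% (n = 196) and −0.03 at 50 to 55% (n = 69). Keratin and epidermal gene clusters held 74 ISs with a median of 0.16, of which 9 were higher by over 1.5-fold (12.2%, interval 6.53 to 21.5%) and 0 were lower, which allows a share of up to 4.05%. Medians were −0.12 in protease and inhibitor clusters (50 ISs), −0.06 in lectin-like and chemokine clusters (42), −0.04 in histone clusters (19) and 0.00 in zinc finger clusters (31). The receptor and epidermal clusters thus had the highest medians among families with 10 or more ISs.

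The 5 ISs of at least median density with the highest fold change after MCM6 depletion were mostly of one-sided base composition. Density here is the mean of both conditions, and 3 of the 5, those at Olfr365-Olfr366, Kcnk5-Kcnk16 and Olfr536-Olfr538, had Rif1KO_shLacZ densities of 2.28, 2.65 and 2.25 log2 RPM, below the 2.77 of gene-dense intergenic ISs, so that the limit was met through the treated condition. The highest of at least median density lay between Arf6, a small GTPase gene, and Mettl21d (chr12:70610515-70611406), with 157 Rif1KO_shLacZ and 469 Rif1KO_shMcm6 reads (log2 fold change 1.42 ± 0.13), and 88.4% of the bases in its 500-bp window were of one kind, purine or pyrimidine, on one strand. Between Olfr365 and Olfr366 there were 102 and 286 reads (1.32 ± 0.17, 68.6%), and between the potassium channel genes Kcnk5 and Kcnk16 there were 132 and 370 (1.32 ± 0.15, 89.4%). The IS between Olfr1234 and Olfr1238, which covers the pseudogene Olfr1235-ps1, had 303 and 820 reads (1.27 ± 0.097, 92.6%). The IS between Olfr536 and Olfr538 had 100 and 240 reads (1.10 ± 0.17, 62.4%). Of these 5 ISs, 4 were above 65%, as were 2.37% of 500-bp windows of the genome, where the median was 53.8%.

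This led to a description of all gene-dense intergenic ISs by the larger of the purine and pyrimidine shares in the 500-bp window, called strand asymmetry here. The measure and its limits were chosen after these sequences and values had been seen. In the second table the median log2 fold change was −0.08 at 50 to 55% (n = 1933), −0.09 at 55 to 60%, −0.09 at 60 to 65%, −0.01 at 65 to 70%, 0.22 at 70 to 80% (n = 323) and 0.55 at 80% or more (n = 79). The share higher by over 1.5-fold was 1.91% in the first of these classes, 17.3% at 70 to 80% and 46.8% at 80% or more, or 37 of 79 ISs. Median densities of those 79 ISs were 2.73 log2 RPM in Rif1KO_shLacZ and 3.23 in Rif1KO_shMcm6 cells. Strand asymmetry of 65% or more was found in 900 of the gene-dense ISs (14.9%), which held 129 of the 241 higher ISs (53.5%). Among all ISs the shares were alike, with 14.2% at 65% or more and 53.9% of the higher ISs among them. The remaining 5149 ISs had a median of −0.09, with 2.18% higher and 2.56% lower, whereas of all ISs under 65% 2.58% were higher and 1.53% lower (median −0.03). The calls in the lists moved with these values. Of the 900 ISs, the 541 called in both hairpin lists had a median of 0.03, with an interval over ISs that includes 0, and 5.73% were higher. The 264 called in the Rif1KO_shMcm6 list only had a median of 0.45, and 36.4% were higher.

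The same ordering was not seen in the first contrast. There the medians of gene-dense intergenic ISs were −0.05, −0.03, −0.06, −0.05, −0.08 and −0.14 over the same classes. Of the 370 ISs at 65% or more, 0 were higher by over 1.5-fold in Rif1KO cells, which allows a share of up to 0.811% (Wilson limit 1.03%). Among all ISs at 65% or more 93 of 7013 were higher (1.33%), but these include ISs outside the 16 autosomes. At any strand asymmetry, 2.27% of all ISs and 0.945% of those on the 16 autosomes were higher. The median of ISs at 65% or more was thus above 0 after MCM6 depletion in cells without RIF1 (0.10) and below 0 after loss of RIF1 itself (−0.07).

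**Figure D4:**
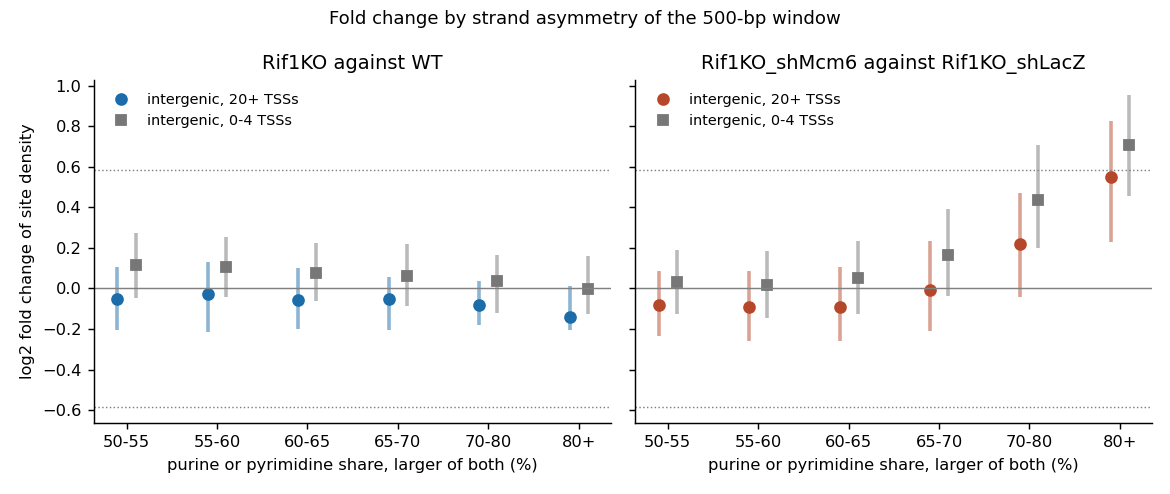
Log2 fold change (y axis) by the larger of the purine and pyrimidine shares in the 500-bp window (x axis, percent) for gene-dense intergenic ISs and for intergenic ISs with 0 to 4 TSSs within 500 kb. Points are medians, lines join the quartiles and dotted lines mark 1.5-fold. After MCM6 depletion (right) both sets lie higher from 65% upward, at 0.55 and 0.71 at 80% or more, and in Rif1KO cells (left) neither does.

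The order was also seen outside gene-dense neighbourhoods. Intergenic ISs with 0 to 4 TSSs had medians of 0.16, 0.44 and 0.71 in the 3 highest classes, and 62.5% of those at 80% or more were higher by over 1.5-fold, as were 52.9% of all ISs at 80% or more. Among gene-dense ISs at 80% or more, 8 of 11 in receptor neighbourhoods and 29 of 68 elsewhere were higher, and 8 of 11 with a GC content under 45% and 29 of 68 above it. Of the 46 that were called in both hairpin lists, 14 were higher (30.4%), with a median of 0.35. Gene-dense ISs therefore lay below gene-poor intergenic ISs in every strand asymmetry class, and both sets had the same order. Without ISs at 65% or more, the medians by gene number were 0.07, 0.02, −0.05, −0.09, −0.09, −0.09 and −0.07, from no TSS to 40 or more.

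At the lower end the 5 ISs named had strand asymmetries of 52.6 to 63.0%. Of these 5, 4 had Rif1KO_shMcm6 densities of 2.42 to 2.73 log2 RPM, below the median of 2.76 over all ISs, and met the density limit through Rif1KO_shLacZ. The lowest IS of at least median density lay between Pigt, which acts in attaching GPI anchors, and Wfdc2, with 199 and 126 reads (−0.82 ± 0.16). Next were ISs between the chemokine receptor genes Cxcr2 and Cxcr1 (−0.77 ± 0.14), between the protease inhibitor genes Serpina3k and Serpina3m (−0.75 ± 0.16), between Smarcd3, a chromatin remodelling subunit gene, and Nub1 (−0.75 ± 0.15), and between Dnmbp and Cpn1 (−0.74 ± 0.15). Of the 149 ISs lower by over 1.5-fold, 11.4% had a strand asymmetry of 65% or more, against 14.9% of all gene-dense intergenic ISs.

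Dense ISs were divided in their response to MCM6 depletion. The densest, between Tmem125 and Wdr65 (chr4:118219720-118221376), had 1187 Rif1KO_shLacZ and 885 Rif1KO_shMcm6 reads, or 5.82 and 5.23 log2 RPM (−0.59 ± 0.064). It was called in all 4 lists, and its fold change in Rif1KO against WT cells was −0.16 ± 0.19. ISs between Fcho1 and Gm5373 (−0.39 ± 0.071) and between Smtn and Morc2a (−0.48 ± 0.074) were also lower by several counting SEs. Those between Olfr444 and Olfr443-ps1 (−0.01 ± 0.065) and between Ptprj and Nup160 (0.05 ± 0.068) lay within 1 SE of 0. Strand asymmetry did not follow these values, at 72.4% for the Tmem125-Wdr65 IS and 75.6% for the Ptprj-Nup160 IS.

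In windows of 1 Mb, summed reads were lower in Rif1KO_shMcm6 cells in 243 of 319 windows with 5 or more gene-dense intergenic ISs (76.2%), with the counting interval below 0 in 145 and above 0 in 27. The lowest with 10 or more ISs were chr2:25000001-26000000, where lipocalin genes are among 57 genes (16 ISs, −0.26 ± 0.038), chr4:133000001-134000000, with Arid1a and Cd52 (11 ISs, −0.26 ± 0.048), and chr7:146000001-147000000, with Bnip3 and Inpp5a (10 ISs, −0.26 ± 0.048). The highest was the olfactory receptor cluster chr2:89000001-90000000, with 33 ISs, 5116 Rif1KO_shLacZ and 7304 Rif1KO_shMcm6 reads (0.35 ± 0.026), of which the Olfr1234-Olfr1238 IS held 303 and 820. Next were the epidermal Sprr and Lce cluster chr3:92000001-93000000 (60 ISs, 0.19 ± 0.022) and chr14:21000001-22000000 (15 ISs, 0.19 ± 0.033), which holds the Kcnk5-Kcnk16 IS. In the last of these the median over ISs was −0.03 and 8 of 15 ISs lay below 0, so that the ratio rested on a few ISs. The median over ISs was below that of other intergenic ISs on 14 of 16 chromosomes, with chromosomes 2 and 18 as the exceptions.

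The window with most gene-dense intergenic ISs in both tables was chr14:51000001-52000000, which joins olfactory receptor genes to ribonuclease genes. Its 23 ISs of the first table gave a log2 ratio of 0.07 ± 0.047, and its 72 ISs of the second gave −0.02 ± 0.017. Neither ratio lay beyond 2 counting SEs, and the medians over ISs were −0.02 and −0.07.

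Near B cell genes, 11 of the 27 had a gene-dense intergenic IS within 50 kb of their TSS in the second table. Ratios were below 0 by over 2 counting SEs near Cd72 (4 ISs, −0.21 ± 0.072), Ikzf3, which encodes AIOLOS (3 ISs, −0.25 ± 0.086), Ms4a1 (8 ISs, −0.14 ± 0.051), Cd79b (1 IS, −0.41 ± 0.16) and the lymphotoxin gene Ltb (2 ISs, −0.30 ± 0.12). They were above 0 by over 2 SEs near Cd79a (8 ISs, 2165 and 2592 reads, 0.10 ± 0.042) and Cd40 (1 IS, 73 and 111 reads, 0.44 ± 0.22). The other 4 genes, Cd22 (−0.08 ± 0.058), Cd74 (0.01 ± 0.056), Cxcr5 (0.03 ± 0.064) and Pou2f2 (0.05 ± 0.058), lay within 2 SEs. The 2 genes of the B cell receptor signalling pair, Cd79a and Cd79b, thus had ratios on opposite sides of 0. Of the 47 ISs near these genes 3 passed 1.5-fold, near the background of 1.51% lower and 4.80% higher, 1 lower near Ikzf3 (−1.002), 1 higher near Cd79a (0.63) and 1 higher near Cd22 (0.88). The medians over ISs were closer to 0 near Ikzf3 (−0.09) and Cd79a (0.03), and near Pou2f2 the median was on the other side of 0 (−0.04).

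Both tables could be set side by side, since no group is shared between them and the genotype of Rif1KO_shLacZ cells is that of Rif1KO cells. Of the 1892 ISs of the first table, 1545 overlapped exactly 1 IS of the second that also met the rule. These had medians of 4.50 log2 RPM in WT, 4.44 in Rif1KO, 3.42 in Rif1KO_shLacZ and 3.28 in Rif1KO_shMcm6 cells, the first 2 and the last 2 on separate scales. Median fold changes were −0.05 and −0.13, against 0.02 and −0.09 for all 31564 ISs found in both tables, which include chromosomes left out of the gene-dense set. Gene-dense intergenic ISs of the deeper second table that overlapped no IS of the first (n = 4475) had a median of −0.03 in that contrast.

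Of the 1545 shared ISs, 712 lay below 0 in both contrasts (46.1%) and 186 above 0 in both (12.0%), against 32.1% and 20.5% of all 31564 ISs found in both tables. Lower by over 1.5-fold were 25 after loss of RIF1 and 35 after MCM6 depletion, with 2 in both, and higher were 13 and 15, with 0 in both. Among all 31564 shared ISs 688 and 476 were lower, with 31 in both, and 714 and 286 higher, with 8 in both, so that passing the threshold in both contrasts was rare everywhere. These 31564 ISs were not limited to the autosomes of the gene-dense set. On those autosomes, all ISs of the first table held only 423 lower and 297 higher after loss of RIF1. The background of shared ISs is therefore not matched by chromosome. Across the 1545 ISs Spearman's rho between the fold changes was 0.12, against 0.13 across all shared ISs, given as a description of values that carry counting error. In receptor neighbourhoods the 201 shared ISs had medians of 0.06 and −0.05, and elsewhere the 1344 shared ISs had medians of −0.07 and −0.15.

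Windows, with more reads than single ISs, were closer between contrasts. Of 174 windows of 1 Mb with 5 or more ISs in both tables, 116 lay below 0 in both and 15 above 0 in both, 15 were below 0 in the first contrast only and 28 in the second only. Spearman's rho was 0.32 and Pearson's r was 0.35 over the 174 windows, as a description. The 22 windows in which at least 50% of the genes near the ISs encode chemosensory receptors had median ratios of 0.09 and 0.04, and the other 152 windows had medians of −0.07 and −0.09. Of the receptor windows 16 lay above 0 after loss of RIF1 and 13 after MCM6 depletion, and of the other windows 27 and 17 did.

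**Figure D5:**
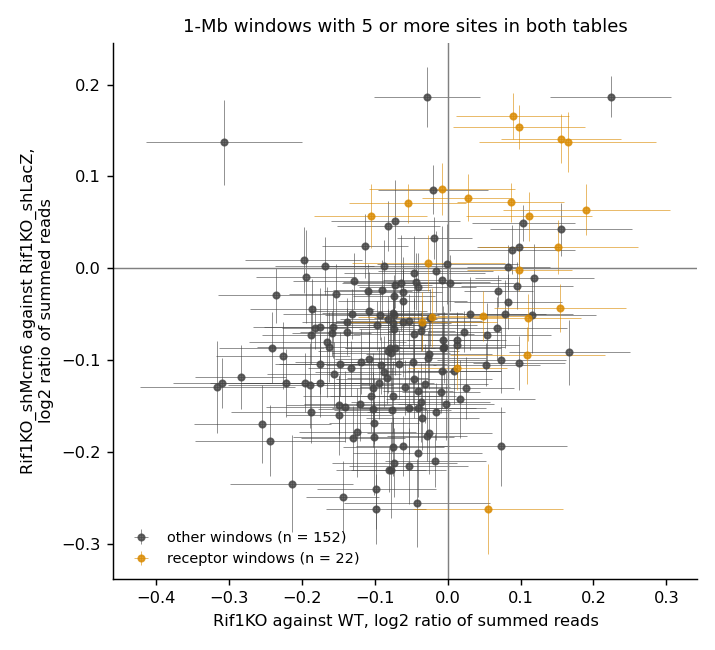
Log2 ratio of summed reads in windows of 1 Mb with 5 or more gene-dense intergenic ISs in both tables, for Rif1KO against WT (x axis) and for Rif1KO_shMcm6 against Rif1KO_shLacZ (y axis). Each point is a window with bars of 1 counting SE, and windows dominated by chemosensory receptor genes (22 of 174) are coloured. Most windows, 116, lie below 0 on both axes, and receptor windows lie mainly to the right of 0.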

How the data were processed

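SNS-seq was performed on 8 libraries in 4 groups of 2. The authors trimmed reads with Trim Galore 0.6.4 and cutadapt 2.6, aligned them to mm9 with Bowtie 1.2.3 and kept unique alignments, per the submitters' processing notes and the study's methods. Peaks were called per replicate with MACS without input, intersected and merged with bedtools, and kept inside clusters. Unique alignment leaves out reads that match more than 1 place, yet ISs in repeats, such as that at Osm-Lif, remained. Without input, differences in DNA content stay in the densities.

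The deposited tables hold log2 RPM, scaled by the authors to the reads in ISs of each table, with 1 value per condition, and how replicates were pooled is not stated. The table of Rif1KO and WT cells holds another number of ISs than the study's text gives and was used as deposited. A further deposited column gives the authors' category of fold change and was not used, and other columns of the lists, which are not densities, were not used either. On the linear scale 100% of values were whole multiples of 1 read to within 0.01 reads, which gave the reads per IS, with 3350255 to 23602750 reads per condition.

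Fold change was treated minus control log2 RPM. Counting SEs came from the reads, and 95% intervals of read ratios cover counting error only. Wilson intervals of shares are binomial over ISs taken as independent units and leave out the read counting error of each call. A count of 0 was given the limit of 3 counts. Genes were the 22380 protein-coding genes of GENCODE M1 on mm9, and sequence came from NCBIM37, the same build. Python 3.11.15, NumPy 2.4.6, pandas 2.3.3, SciPy 1.17.1 and matplotlib 3.10.9 were used, and the scripts were tested on simulated data.

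Named ISs were the 5 highest and 5 lowest fold changes among ISs whose mean log2 RPM over both conditions was at or above the median of all ISs of the table, and the 5 densest in WT and in Rif1KO_shLacZ cells. Of the 1-Mb windows with 10 or more ISs the 3 highest and 3 lowest ratios were named, and the windows with most ISs. The ISs and gene lists were chosen with earlier results of these data known. Alternatives covered the gene number, the distances, density, a pseudocount, thresholds, calling and receptor neighbourhoods. Fits per replicate were planned but could not be run. Results for 1 gene of the B cell list and some sequences are not reported here.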

Additional observations from a re-analysis of the deposited data

How the results depend on the processing

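Medians and read share ratios kept their direction under the alternatives run, except the median of receptor neighbourhoods after MCM6 depletion. In place of 0.02 it was −0.024 at 40 to 45% GC, −0.068 at 45 to 50%, −0.028 at 50 to 55% and −0.045 among the 201 ISs shared with the first table. By GC class other medians turned as well. After loss of RIF1 that of receptor neighbourhoods was −0.012 at 50 to 55%, that of other neighbourhoods 0.017 under 40% and that of all gene-dense intergenic ISs 0.10 under 40%. After MCM6 depletion the latter 2 were 0.0045 and 0.034 under 40%. Of 98 alternative values for 12 results, 60 stayed close to the reported value. Alternatives on receptor share, on GC content and on strand asymmetry were chosen after seeing the data.

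For Rif1KO against WT, ISs called in both conditions gave a median of −0.070, a read share ratio of −0.072, and 0.382% lower and 0% higher by over 1.5-fold. Of all ISs called in both conditions, on any chromosome, 1.29% were lower and 0.425% higher. No such share is given for the autosomes of the gene-dense set alone. Both shares of the gene-dense ISs called in both conditions thus lay below a background not matched by chromosome. Without receptor neighbourhoods the median and the ratio were −0.069 and −0.073. At or above the lower quartile of density 1.26% were lower and 0.141% higher, at 2-fold 0.106% and 0.0529%, and at a log2 threshold of 0.32 13.3% and 5.603%. Shares of all ISs are not given for this density limit or these thresholds, so no matching background stands beside these values. Other neighbourhoods at 40 to 45% GC had a median of −0.017.

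For Rif1KO_shMcm6 against Rif1KO_shLacZ, medians and ratios were −0.087 and −0.071 for ISs called in both conditions, −0.135 and −0.121 for those overlapping exactly 1 IS of the first table, −0.087 and −0.069 without receptor neighbourhoods, and −0.086 and −0.078 without strand asymmetry of 65% or more. The ratio was −0.040 with 30 or more TSSs and −0.055 at or above the lower quartile of density. Lower and higher shares were 1.34% and 2.42% above that quartile, 0.810% and 2.31% on log2(RPM + 1), 1.23% and 1.35% in both conditions, 0.0827% and 0.744% at 2-fold, and 15.99% and 11.6% at a log2 threshold of 0.32. Among these settings, a matching share of all ISs is given only for calling in both conditions, in the results above. Lower were 2.26% and higher 0.9702% of ISs overlapping 1 IS of the first table, and without strand asymmetry 2.56% and 2.18%. Receptor medians were 0.0050 with receptor genes at 25% or more and 0.059 at 75% or more. What moved these values was not tested, except that the thresholds count fewer or more ISs by construction.

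No paired analysis was possible because the replicates of each condition are pooled into 1 value. Alternatives that leave out a replicate and limma fits were not run for the same reason. Depth limits single ISs, with median counting SEs of 0.23 and 0.17 (log2), and the spread between replicates could not be measured.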
